A study of Mus musculus with 30 samples.

Results

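A short return to high-fat diet after weight loss was examined in the gonadal fat pad, a visceral white adipose depot, of male wild-type C57BL6/J mice aged 35 weeks. Arrays entered the comparison by their group labels: 6 arrays of formerly obese-HFD mice and 6 arrays of formerly obese mice, 12 of the 30 arrays measured. Formerly obese mice were fed a high-fat and high-sucrose diet (HFD, 58% of energy from fat) over 20 weeks. Control diet (10.5% of energy from fat) followed over the next 7 weeks. Formerly obese-HFD mice shared that history but received HFD once more during the last 48 h. The study states that a short fast preceded this return to HFD. A further 12 arrays, 6 from lean mice held on control diet throughout and 6 from lean-HFD mice given HFD for the first time during 48 h, served to set the refeeding response beside that of animals with no obesity in their past. The last 6 arrays came from obese mice with 27 weeks of HFD and are used only for values set beside those of refed mice. Each array measured RNA of the whole depot of 1 mouse, so adipocytes, stromal cells, vessels and immune cells contributed together, and fewer cells of a type and less RNA per cell cannot be told apart.

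White adipose tissue stores triglyceride and can also make fatty acids itself. In this de novo lipogenesis, citrate exported from mitochondria is split by ATP citrate lyase (Acly) to acetyl-CoA, acetyl-CoA carboxylase (Acaca) makes malonyl-CoA, fatty acid synthase (Fasn) builds palmitate with NADPH as reductant, and elongases such as Elovl6 and desaturases such as Scd1 lengthen and desaturate the product. Carbohydrate and insulin raise this programme through the transcription factors SREBP-1c and ChREBP, and dietary fat is known to lower it.

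The stretches of 250 bases before the starts of 3 genes that lead the comparison are shown because their levels were lower in refed mice of both histories. They are RefSeq sequences of build GRCm38.p6, written from 5′ to 3′ on the strand of the gene, and capitals mark a match on either strand to the CCAAT box (CCAAT), the GC box (GGGCGG), the E-box (CACGTG) or a sterol response element (TCACNCCAC).
Acly, chr11:100528001-100528250, minus strand: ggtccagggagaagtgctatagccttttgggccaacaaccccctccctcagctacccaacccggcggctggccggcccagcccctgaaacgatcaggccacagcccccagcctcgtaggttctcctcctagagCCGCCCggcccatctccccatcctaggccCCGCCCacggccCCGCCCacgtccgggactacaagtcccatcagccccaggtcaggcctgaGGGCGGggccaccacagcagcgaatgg
Fasn, chr11:120824548-120824797, minus strand: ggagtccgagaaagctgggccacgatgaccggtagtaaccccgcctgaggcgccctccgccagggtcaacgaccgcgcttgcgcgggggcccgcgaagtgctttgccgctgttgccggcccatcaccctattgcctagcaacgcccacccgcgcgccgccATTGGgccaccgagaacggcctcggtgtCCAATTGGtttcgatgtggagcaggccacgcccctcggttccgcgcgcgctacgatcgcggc
Acss2, chr2:155517793-155518042, plus strand: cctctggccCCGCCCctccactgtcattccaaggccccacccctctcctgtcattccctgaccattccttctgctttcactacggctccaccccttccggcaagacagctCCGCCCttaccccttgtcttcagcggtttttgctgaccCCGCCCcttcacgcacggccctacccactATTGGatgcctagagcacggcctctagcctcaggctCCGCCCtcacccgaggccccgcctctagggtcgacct
The Acly stretch held 4 GC boxes, the nearest beginning 27 bases before the start. The Fasn stretch held 3 CCAAT boxes, of which those at 62 and 59 bases before the start overlap on opposite strands. The Acss2 stretch held 4 GC boxes and 1 CCAAT box. None of these 4 sequences was found in the same window of Elovl6, on chromosome 3. Of 32851 RefSeq mouse promoters, 33.8% held a CCAAT box, 32.7% a GC box, 6.02% an E-box and 1.05% the sterol response element in this window. A match describes letters only.

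Every comparison below is a difference of log2 expression with the SE of the limma fit over 41345 probe sets. A probe set was called at a Benjamini-Hochberg adjusted p under 0.1 with a fold over 1.3 and a level over 16 on the linear scale in at least 1 group. No probe set was called between formerly obese-HFD and formerly obese mice (0.00%), and the smallest adjusted p from limma was 0.25, that of Acly. Unadjusted p-values under 0.05 were found for 2207 probe sets, or 5.34%, with 2.37% higher and 2.97% lower. A looser set kept the fold and level limits but asked only for an unadjusted p below 0.01. It held 253 probe sets, 87 higher (0.210%) and 166 lower (0.401%) in refed mice. Over the 22180 genes with 1 chosen probe set it held 36 higher (0.162%) and 75 lower genes (0.338%). The refed arrays lay wholly above the formerly obese arrays for 25 genes (0.113%) and wholly below them for 46 (0.207%). Since none of these differences passed the adjusted threshold, all genes below are described by their levels and not as changed. The medians of these 12 arrays lay between 4.88 and 4.97 log2, and each had a mean correlation of 0.971 to 0.979 with the others of its own group. The litter and cage of each array are not given in the sources used here. The study gives food intake of refed mice per pair of mice, and whether arrays shared a cage is not known. The p-values measure the spread between these animals and take them as independent.

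Within the looser set, Elovl6 and Acly, both genes of fatty acid synthesis, had the largest differences and were lower in formerly obese-HFD mice. Some genes outside that set, with wider spreads, differed by more, such as Ucp1 (-1.82) and Mup3 (1.78), both described further on. Acly, on chromosome 11, measured 9.53, 9.73, 9.79, 9.85, 10.08 and 10.18 log2 in the 6 formerly obese arrays and 8.07, 8.31, 8.42, 8.68, 8.85 and 9.16 in the 6 refed arrays. The ranges did not meet, and the difference was -1.28 ± 0.17, a 2.42-fold lower level (unadjusted p = 6.05e-06). Fasn, also on chromosome 11, ran from 11.02 to 11.76 with a median of 11.35 in formerly obese mice and measured 9.45, 9.97, 9.99, 10.01, 10.95 and 11.29 in refed mice. Of the 6 refed arrays 5 lay below every formerly obese array, and the difference was -1.12 ± 0.27 (adjusted p = 0.792). Elovl6, which lengthens palmitate, ran from 7.95 to 8.96 with a median of 8.31 in formerly obese mice and from 5.77 to 8.32 with a median of 6.68 in refed mice. Again 5 refed arrays lay below all others, and the difference of -1.55 ± 0.34 was the largest of the looser set (adjusted p = 0.695). Acss2, which makes acetyl-CoA from acetate in the cytosol, had medians of 8.48 and 7.17, with 4 refed arrays below every formerly obese array and a difference of -1.07 ± 0.32 (adjusted p = 0.876). Me1, the cytosolic malic enzyme that supplies NADPH, had medians of 10.81 and 10.11 and a difference of -0.69 ± 0.19 (adjusted p = 0.876).

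**Figure D1:**
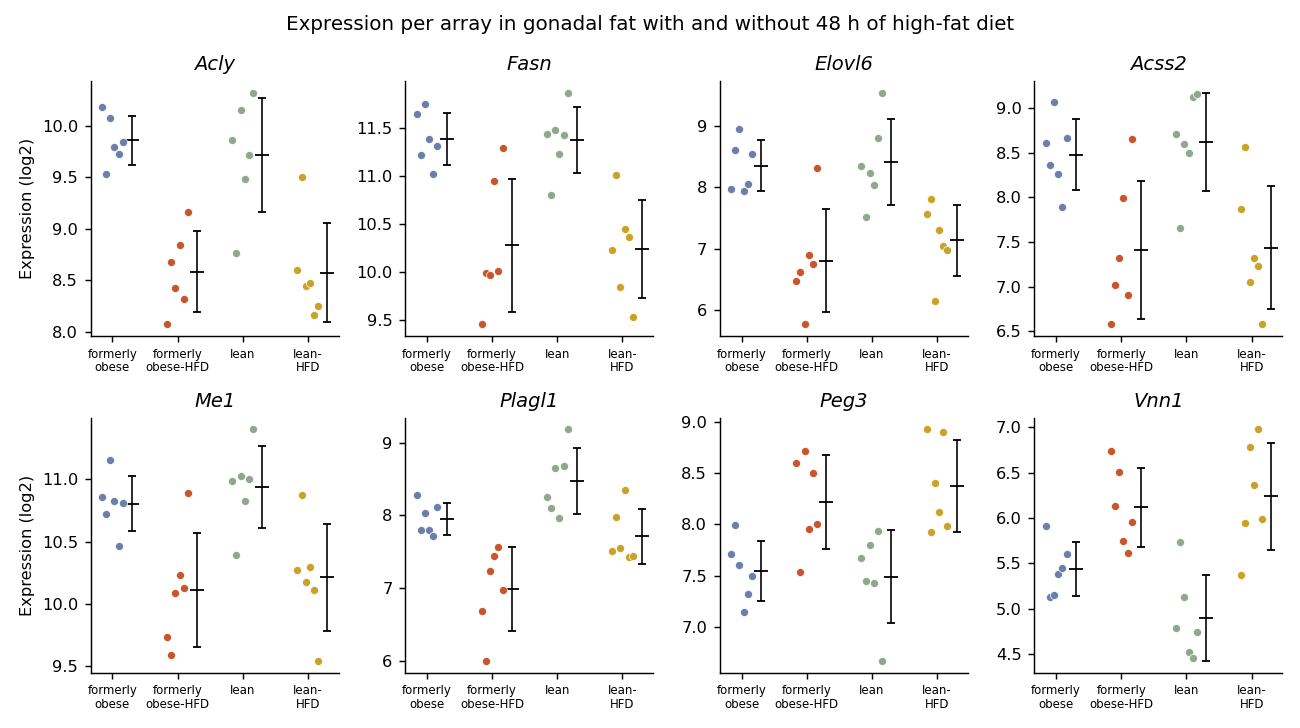
Expression (log2) of 8 genes in each array of the formerly obese, formerly obese-HFD, lean and lean-HFD groups. Points are single arrays, and the horizontal mark with its bar is the mean with the SD over 6 arrays. Acly lies between 8.07 and 9.16 in every refed formerly obese array, below the lowest formerly obese array at 9.53, while Peg3 and Vnn1 lie higher after HFD in both histories.

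Within the list of 20 fatty acid synthesis genes, 19 were measured and 14 were lower in refed mice, 6 of them at an unadjusted p under 0.05 against 2.78% of all genes in that direction, while 0 were higher at that p. The list's median difference was -0.13 beside 3.33e-04 over all genes. The 6 were Elovl6, Acly, Fasn, Acss2, Me1 and Acaca (-0.67 ± 0.28, unadjusted p = 0.0306). At a smaller difference the mitochondrial citrate carrier Slc25a1 was also lower (-0.29 ± 0.21, unadjusted p = 0.182). The 14 also take in Scd1 and Srebf1, which stood near 0. Scd1, which introduces the double bond, ran from 12.31 to 12.67 in refed and from 12.47 to 12.63 in formerly obese mice, and differed by -0.06 ± 0.08. The transcript of Srebf1, which encodes SREBP-1c among other forms, differed by -0.01 ± 0.14 and Mlxipl, which encodes ChREBP, by 0.08 ± 0.12. Acacb, the carboxylase at the outer mitochondrial membrane, was 0.52 ± 0.31 higher (unadjusted p = 0.121).

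**Figure D2:**
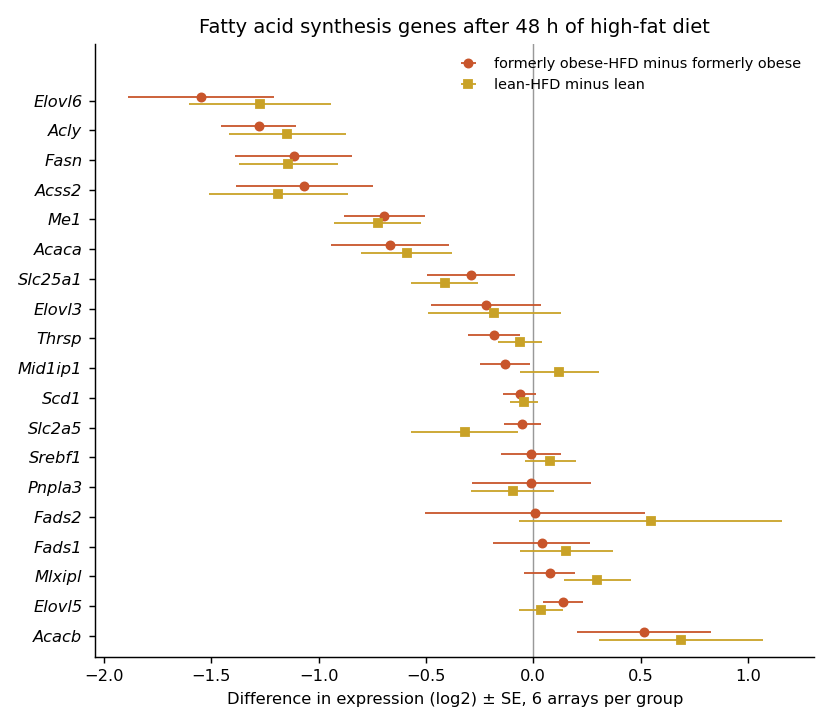
Differences (log2) ± SE for the 19 measured genes of the fatty acid synthesis list, for formerly obese-HFD minus formerly obese (circles) and lean-HFD minus lean (squares), 6 arrays per group. Elovl6, Acly, Fasn, Acss2, Me1 and Acaca lie to the left of 0 in both histories, from -1.55 to -0.59, and Srebf1 and Scd1 lie at 0.

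Supply routes for the same pathway leaned the same way. Of 8 measured NADPH-supplying enzymes 7 were lower, 4 at an unadjusted p under 0.05 against 2.78% of all genes, with a median of -0.22. Me1, 1 of these 4, is also counted in the fatty acid synthesis list. The others included the mitochondrial malic enzyme Me2 (-0.21 ± 0.08) and the pentose phosphate enzyme Rpe (-0.26 ± 0.11). Of 21 glucose uptake and glycolysis genes 18 were lower, 7 at that p against the same 2.78%, with a median of -0.20. Pfkfb3, a regulator of glycolytic flux, was in the looser set at -0.40 ± 0.12, hexokinase 2 (Hk2) differed by -0.38 ± 0.13, and Gapdh, often taken as a reference gene, had 5 refed arrays below every formerly obese array (medians of 11.72 and 11.91, difference -0.20 ± 0.07). Triglyceride synthesis showed 11 of 14 genes lower, 3 at an unadjusted p under 0.05, again beside 2.78%. They were Gpd1, which makes glycerol phosphate (medians of 9.10 in refed and 9.64 in formerly obese mice, -0.45 ± 0.14), Dgat2, which completes triglyceride (-0.37 ± 0.14), and Mogat2 (-0.41 ± 0.16). In fatty acid uptake and binding 9 of 12 were lower, led by Angptl8, a secreted protein that restrains lipoprotein lipase and is known to rise with feeding. Angptl8 ran from 6.60 to 7.87 in formerly obese and from 6.35 to 6.77 in refed mice, a narrow band in which 5 refed arrays lay below all formerly obese arrays (-0.84 ± 0.23, adjusted p = 0.876). Lipoprotein lipase itself (Lpl) differed by -0.13 ± 0.09.

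Genes of fat breakdown stood near 0. Of 17 genes of lipolysis and the lipid droplet 0 reached an unadjusted p under 0.05 in either direction, with a median of 0.05 and single values from -0.36 (Cidea) to 0.23 (Hcar2). Of 22 genes of fatty acid oxidation and PPAR-alpha targets 16 were higher, 2 at that p, against 2.11% of all genes, with a median of 0.04. They were Vnn1, described below, and Ppargc1a, the coactivator of mitochondrial genes (0.57 ± 0.22, unadjusted p = 0.0231). Pdk4, which restrains glucose oxidation, differed by 0.35 ± 0.17. In cholesterol synthesis and uptake 17 of 21 genes were lower, with a median of -0.11. Only Fdps reached an unadjusted p under 0.05 (-0.42 ± 0.18), beside 2.78% of all genes lower at that p. Insulin signalling had 15 of 18 genes higher by small amounts, with a median of 0.06 and 0 at that p. The lists of mitochondrial respiration, the tricarboxylic acid cycle and branched-chain amino acid breakdown had medians of -0.03, -0.02 and 0.06 with 0 genes at that p.

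One refed array stood apart in this pathway. In formerly obese-HFD replicate 6 Fasn read 11.29, Elovl6 8.32, Acss2 8.65 and Me1 10.89, values inside the range of the formerly obese arrays, and it was the highest refed array for 8 of the 15 named lower genes of largest difference. Acly in the same array, at 9.16, was below the lowest formerly obese array. Without this array the differences were -1.39 for Acly, -1.85 for Elovl6, -1.32 for Fasn and -1.32 for Acss2, and 2 probe sets were called, Acly (limma adjusted p = 0.0459) and Elovl6 (limma adjusted p = 0.092). Acly was also called when only probe sets with 1 gene symbol were tested (adjusted p = 0.0943). Neither gene was called when any other array was left out, and the adjusted p of Acly ranged from 0.0459 to 0.922 over all settings tried.

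The lean arrays came from other animals and offered a separate reading of the same 48 h of HFD. Of the 75 lower genes of the looser set, 64 were lower in lean-HFD than in lean mice, 27 of them (36%) at an unadjusted p under 0.05 against 3.05% of all genes, and 0 were higher at that p. Of the 36 higher genes 24 were higher in lean-HFD mice too, 8 (22.2%) at an unadjusted p under 0.05 against 2.49% of all genes, and 1, Mir100, was lower at that p. These 8 were Tdo2, Elovl2, Fkbp5, Apon, Rgn, Apoc3, Peg3 and Vnn1, several of which are known to be abundant in liver, and hepatocyte markers were higher in the same lean-HFD arrays, with a median of 2.33 and 12 of 16 at an unadjusted p under 0.05. The part of liver RNA in this count was not tested. The medians in lean mice were -0.36 for the lower genes, beside -0.60 in formerly obese mice, and 0.11 for the higher genes, beside 0.50. Acly differed by -1.14, Fasn by -1.14, Elovl6 by -1.27, Acss2 by -1.19 and Me1 by -0.72 in lean-HFD against lean mice. In all, 13 genes were in the looser set of both histories in the same direction, where the looser set of lean mice held 0.225% of genes as higher and 0.252% as lower. In lean mice 1 probe set was called, a higher one with no gene symbol (0.00242%). The 10 lower ones were Acly, Elovl6, Fasn, Acss2, Me1, Plagl1, Trhde, Odf3l1, Enpep and Ntsr2, and the 3 higher ones were Vnn1, Peg3 and Tdo2. Enpep, Ntsr2, Tdo2, Elovl2 and Mir100, and the predicted genes named below, were singled out after their values were seen. Across the 16595 genes above the level filter the differences of both histories had a correlation of 0.0209, given as a description since genes are not independent replicates. In the lean groups, lean replicate 2 (Acly 8.76) lay within the range of the lean-HFD arrays and lean-HFD replicate 2 (Acly 9.50) within that of the lean arrays.

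**Figure D3:**
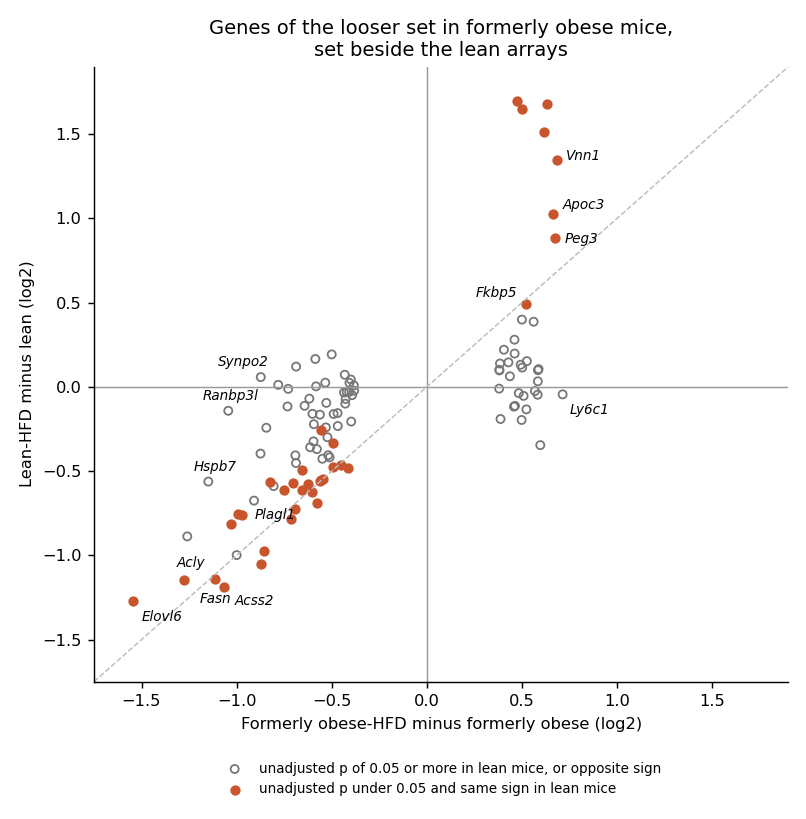
Each point is 1 of the 111 genes of the looser set in formerly obese mice, with its difference (log2) in formerly obese mice on the horizontal axis and in lean mice on the vertical axis. The dashed line marks equal differences, filled points have an unadjusted p under 0.05 and the same sign in lean mice (27 lower, 8 higher), and the gap about 0 on the horizontal axis is set by the fold filter.

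A direct test of the difference between histories called 0 probe sets (limma on 24 arrays, smallest adjusted p = 0.265), while 1904 probe sets had an unadjusted p under 0.05 (4.61%, with 2.38% above and 2.23% below 0) and 239 were in its looser set (0.276% above and 0.302% below 0). The interaction was -0.13 ± 0.34 for Acly (unadjusted p = 0.697), 0.02 ± 0.38 for Fasn and -0.27 ± 0.50 for Elovl6, so a difference of the lipogenic response between mice with and without former obesity was not detectable with 6 arrays a group. Leaving out predicted genes and small RNAs, the 5 genes with the smallest interaction p were Slc35f3, Cdhr1, Tuft1, Pyroxd2 and Mcm9. The microRNA gene Mir100, outside that rule, had a smaller one (5.78e-05, adjusted p = 0.684), with a difference of 0.60 in formerly obese and -0.35 in lean mice. Slc35f3 was 0.60 ± 0.21 higher in refed formerly obese mice and differed by -0.59 in refed lean mice (interaction 1.19, adjusted p = 0.989). Its levels were lowest at 3.83 in formerly obese, 4.31 in formerly obese-HFD, 4.36 in lean and 3.84 in lean-HFD mice, close to the level filter. Pyroxd2 (interaction 0.81), Tuft1 (0.49) and Cdhr1 (0.47) had the same pattern and Mcm9, a helicase of DNA repair, the opposite one (-0.46).

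Several further genes were lower after refeeding. Pla2g2e, a secreted phospholipase, ran from 7.62 to 8.56 with a median of 8.39 in formerly obese and from 6.87 to 7.83 with a median of 7.21 in refed mice, with 5 refed arrays below all others (-1.03 ± 0.18, adjusted p = 0.453). In lean-HFD mice it was lower by 0.81, and in obese against lean mice higher by 0.58. S100a8, a calcium-binding protein of neutrophils, had medians of 7.28 and 6.28 (-1.0 ± 0.28), beside 9.72 in obese and 7.70 in lean mice. A further list held 20 granulocyte and mast cell markers, 7 of them below the level filter. Of the 20, 15 were higher in refed mice, with a median of 0.04. Only S100a8 was lower at an unadjusted p under 0.05, beside 2.78% of all genes. Trhde, a peptidase that cleaves thyrotropin-releasing hormone, had medians of 6.04 and 5.08 (-0.99 ± 0.24), Gys2, the liver form of glycogen synthase, differed by -0.91 ± 0.27, and Fgf13 by -0.87 ± 0.26. Hspb7, a small heat shock protein of muscle, had medians of 7.67 and 6.76 (-1.15 ± 0.29) and Synpo2, an actin-binding protein, of 8.49 and 7.53 (-0.87 ± 0.26). In lean mice Synpo2 differed by 0.06. Ranbp3l (-1.04 ± 0.29) and Odf3l1 (-0.86 ± 0.24) complete the 15 genes of largest difference once predicted genes are left out. Of the predicted genes Gm5941 (-1.26) and Gm14406 (-0.87) differed by as much. Ranbp3l and Synpo2 were highest of their groups in formerly obese replicate 5 (6.83 and 9.20), lean replicate 2 and lean-HFD replicate 6. The muscle marker Tnnc2 was highest in the same arrays (9.8, 8.7 and 9.7), and ran from 5.52 to 6.15 in refed formerly obese arrays. Without formerly obese replicate 5 Ranbp3l differed by -0.78 and Synpo2 by -0.71. The part of muscle RNA in these differences was not tested. All 15 genes of largest difference had at least 4 refed arrays below every formerly obese array and 11 had at least 5. Acly and Plagl1 had all 6, beside 0.207% of all genes. The 15 were chosen by their differences in the same arrays, so these counts are no separate evidence of a lower level. The share of all genes with at least 4 or at least 5 such arrays was not computed.

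Imprinted regulators of fat growth stood on both sides. Plagl1, an imprinted zinc finger transcription factor, ran from 7.71 to 8.28 in formerly obese and from 6.0 to 7.57 in refed mice, with no overlap (-0.97 ± 0.23, adjusted p = 0.751). Peg3, a paternally expressed zinc finger gene, ran from 7.14 to 7.99 in formerly obese and from 7.54 to 8.72 in refed mice, with 4 refed arrays above every formerly obese array (0.68 ± 0.20, adjusted p = 0.881). Both had the same direction in lean-HFD mice (-0.76 and 0.89), and in obese against lean mice (-1.49 and 1.25). Ndn, the gene of necdin, was lower by 0.31 ± 0.10 and in lean mice lower by 0.61. Over the 16 measured genes of early fat expansion and imprinting the median was -0.13, with 1 higher and 2 lower at an unadjusted p under 0.05, beside 2.11% and 2.78% of all genes. In extracellular matrix, Col15a1, a collagen of the basement membrane zone, ran from 7.08 to 7.60 in formerly obese and from 5.87 to 6.96 in refed mice without overlap (-0.83 ± 0.17, adjusted p = 0.695), Col12a1 differed by -0.64 ± 0.20 and Col4a1 by -0.33 ± 0.12. These 3 were the only ones of 24 matrix genes with an unadjusted p under 0.05, all lower beside 2.78% of all genes, and the list's median was -0.07.

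Higher levels in refed mice were smaller in size, at most 0.71 among the named genes of the looser set. Ly6c1, a surface protein of vessel endothelium and lymphoid and myeloid cells, ran from 5.19 to 6.27 with a median of 6.16 in formerly obese and from 6.46 to 7.05 with a median of 6.65 in refed mice, with every refed array above every formerly obese array (0.71 ± 0.17, adjusted p = 0.79). In lean mice it differed by -0.04. Without formerly obese replicate 5, the lowest array, the difference was 0.55. Fkbp5, a co-chaperone of the glucocorticoid receptor and one of its best known targets, ran from 6.49 to 6.93 and from 6.94 to 7.51, again without overlap (0.52 ± 0.11, adjusted p = 0.695, and 0.49 in lean mice). Of 18 genes of the glucocorticoid and fasting response 13 were higher, 3 at an unadjusted p under 0.05, namely Fkbp5, Lcn2 and the metallothionein Mt1 (0.21 ± 0.08), beside 2.11% of all genes, with a list median of 0.04. Lcn2 differed by 1.11, and by 0.42 with the motile cilia score described below as a covariate. Nat8, an acetyltransferase, was the third named gene without overlap (3.70 to 4.04 and 4.16 to 4.62, 0.51 ± 0.10), beside 0.113% of all genes. These 3 were chosen by their differences in the same arrays. Nat8 lies at the level filter, which it passed only through the refed group (medians of 3.90 and 4.37). Vnn1, a pantetheinase that PPAR-alpha induces, had medians of 5.41 and 6.04 (0.68 ± 0.20), and 1.34 in lean mice. The complement components C7 (medians of 9.84 and 10.46, 0.56 ± 0.12) and C2 (7.75 and 8.10, 0.50 ± 0.15) were in the looser set, as was granzyme B (Gzmb, 3.96 and 4.48, 0.50 ± 0.15), which lies at the level filter. Leaving out Mir100 (0.60) and the predicted gene LOC100861738 (0.58), the others of the 15 genes of largest difference were Rgn (0.63), Apoc3 (0.66), Apon (0.61), Lonrf3 (0.59), the homeobox gene Hoxa4 (0.58), the metalloproteinase Adam12 (0.58), the bicarbonate transporter Slc4a4 (0.57), Gpr31b (0.53) and the homeobox gene Lhx1 (0.52). Apon (medians of 3.73 and 4.26) and Gzmb also passed the level filter only through the refed group. Nmb, which encodes neuromedin B, had medians of 8.85 and 9.19 (0.35 ± 0.11) and differed by 0.37 in lean mice.

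Clock genes leaned lower. Bhlhe40, a repressor of the circadian loop, ran from 8.59 to 9.02 in formerly obese and from 7.81 to 8.59 in refed mice (-0.60 ± 0.15, adjusted p = 0.786), its relative Bhlhe41 differed by -0.35 ± 0.10 and the output factor Dbp by -0.32 ± 0.12. Of 17 clock genes 12 were lower, 5 at an unadjusted p under 0.05, and 1 higher at that p, beside 2.78% and 2.11% of all genes, with a median of -0.12. The median in obese against lean mice was -0.35 and in lean-HFD against lean mice -0.04. The time of day at tissue collection is not given in the sources used here.

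Of 11 adipokine genes 2 were higher (Agt and Lcn2) and 1 lower (Rbp4) at an unadjusted p under 0.05. The shares over all genes were 2.11% and 2.78%, and the list's median was 0.05. Lcn2 is also counted in the glucocorticoid and fasting response list. Leptin (Lep) differed by -0.20 ± 0.21 and adiponectin (Adipoq) by 0.05 ± 0.09. Rbp4, the retinol carrier, differed by -0.48 ± 0.17 and Agt, which encodes angiotensinogen, by 0.57 ± 0.23. Ucp1, the uncoupling protein of brown adipocytes, read 4.33, 4.57, 4.64, 6.10, 8.44 and 9.95 in formerly obese mice and between 4.29 and 4.74 in refed mice. The difference of -1.82 ± 0.85 (unadjusted p = 0.052) rested on formerly obese replicates 2 and 6, and without replicate 2 it was -1.10. Cox7a1, a subunit of cytochrome oxidase in brown fat and muscle, was highest in the same arrays (9.11 and 8.46) and differed by -0.76 ± 0.28. Of 16 brown and beige fat genes 1 was higher and 1 lower at an unadjusted p under 0.05. The shares over all genes were 2.11% and 2.78%, and the list's median was -0.03.

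Macrophage markers had a median of 0.01, with 12 of 21 higher and 0 at an unadjusted p under 0.05, beside 0.47 in obese against lean mice. Lipid-associated macrophage genes had a median of -0.11 beside 1.10, with 13 of 16 lower. Of them 1, the fatty acid binding protein Fabp5, was lower at that p (-0.23), beside 2.78% of all genes. Adgre1, the gene of the macrophage protein F4/80, ran from 8.13 to 9.07 in formerly obese and from 7.38 to 9.45 in refed mice (-0.01 ± 0.35), and Itgax, the gene of CD11c, from 5.46 to 8.05 and from 4.34 to 7.82 (-0.32 ± 0.64). For Adgre1, 3 refed arrays lay below and 2 above every formerly obese array, and for Itgax 3 lay below. Tnf (0.12 ± 0.24), Cd68 (-0.05 ± 0.38), Mrc1 (-0.02 ± 0.16), Vcam1 (0.03 ± 0.24), Il6 (0.21 ± 0.17) and Il1b (0.18 ± 0.23) differed by less than 2 SE. Lyz1, a lysozyme, was lower in refed mice (-0.51 ± 0.22, unadjusted p = 0.035), with medians of 9.46 and 8.76 and 10.20 in lean mice. B and plasma cell markers had a median of -0.31 with 0 of 13 at an unadjusted p under 0.05. NK and cytotoxic markers had a median of 0.11 with Gzmb alone of 15 higher at that p, beside 2.11% of all genes.

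**Figure D4:**
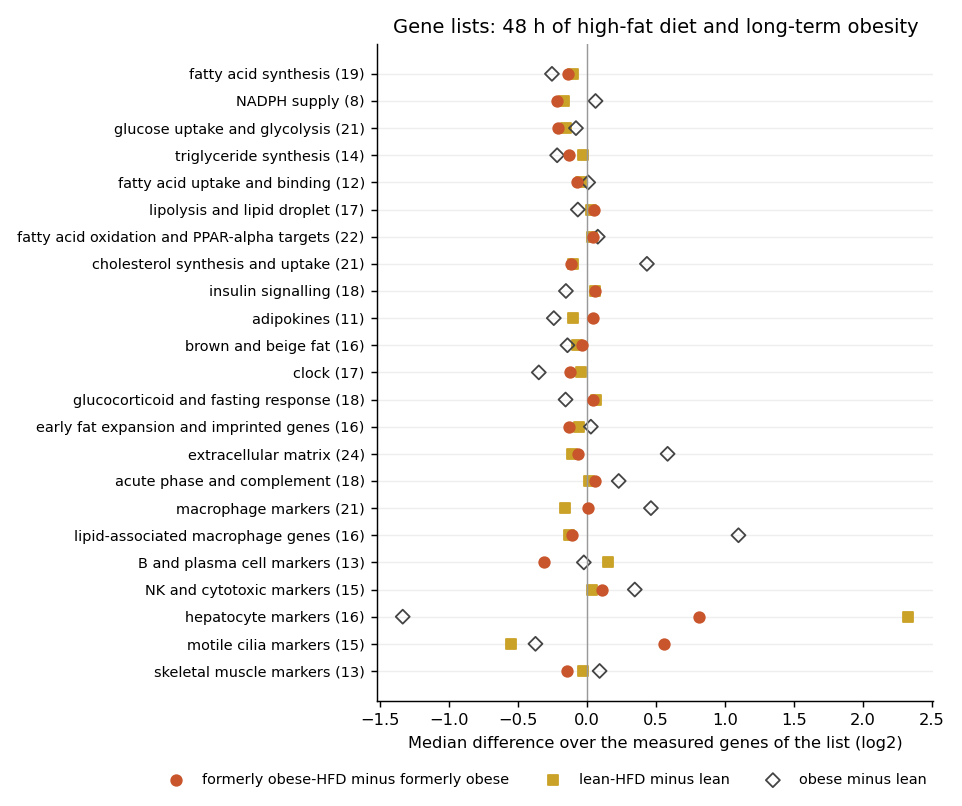
Median difference (log2) over the measured genes of 23 lists, with the number of genes in brackets, for formerly obese-HFD minus formerly obese (circles), lean-HFD minus lean (squares) and obese minus lean (diamonds). The squares and diamonds share the lean arrays. The circles of hepatocyte markers (0.81) and motile cilia markers (0.56) lie farthest to the right of 0, and lipid-associated macrophage genes lie at -0.11 beside 1.10 in obese mice.

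Transcripts of other tissues varied between arrays, and the groups overlapped in each list. Of 16 measured hepatocyte markers 14 were higher in refed mice. Of these 2, Apoc3 and Mup3, were higher at an unadjusted p under 0.05, beside 2.11% of all genes. The mean level of the list ran from 4.95 to 7.42 in formerly obese and from 5.33 to 7.57 in refed arrays. The higher genes Rgn, Apon and Tdo2 are, like Apoc3, strongly expressed in liver. The hepatocyte list's score was added as a covariate, a setting chosen after seeing the data. Apoc3 then differed by 0.50, Rgn by 0.40 and Apon by 0.43, while Acly differed by -1.26 and Fasn by -1.11. Apoc3 is itself 1 of the 16 markers in the score, so the score is no independent measure for it. Motile cilia markers, genes of epithelia that move fluid, were higher for 13 of 15 genes with 0 at that p, the mean level running from 4.61 to 6.44 and from 4.85 to 6.96. In lean mice their median difference was -0.55. Of the 15, 5 had an interaction p under 0.05, beside 2.50% of all genes above 0 and 1.73% below 0. Tmem212, Dnah9 and Rsph4a of this list each peaked in formerly obese replicate 4, formerly obese-HFD replicate 5 and lean replicate 4. These genes moved together between arrays, so the 5 need not be separate results. With the cilia score as a covariate Lcn2, which ran from 6.94 to 9.42 in formerly obese and from 7.78 to 10.22 in refed mice (1.11 ± 0.47), differed by 0.42, Ppargc1a by 0.29, and the interaction of Slc35f3 was 0.78, while Acly differed by -1.34. Skeletal muscle markers had a median of -0.14, with Tnnc2 (-1.38 ± 0.56) and Acta1 (-1.29 ± 0.61) highest in formerly obese replicates 4 and 5. Of the genes of largest difference, chosen at an unadjusted p under 0.01, 13 of 15 lower and 7 of 15 higher ones kept that p with the hepatocyte score, and 12 of 15 lower and 10 of 15 higher ones with the cilia score, while all of them stayed under 0.05. Beyond these settings the part of other tissues in the differences was not tested.

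**Figure D5:**
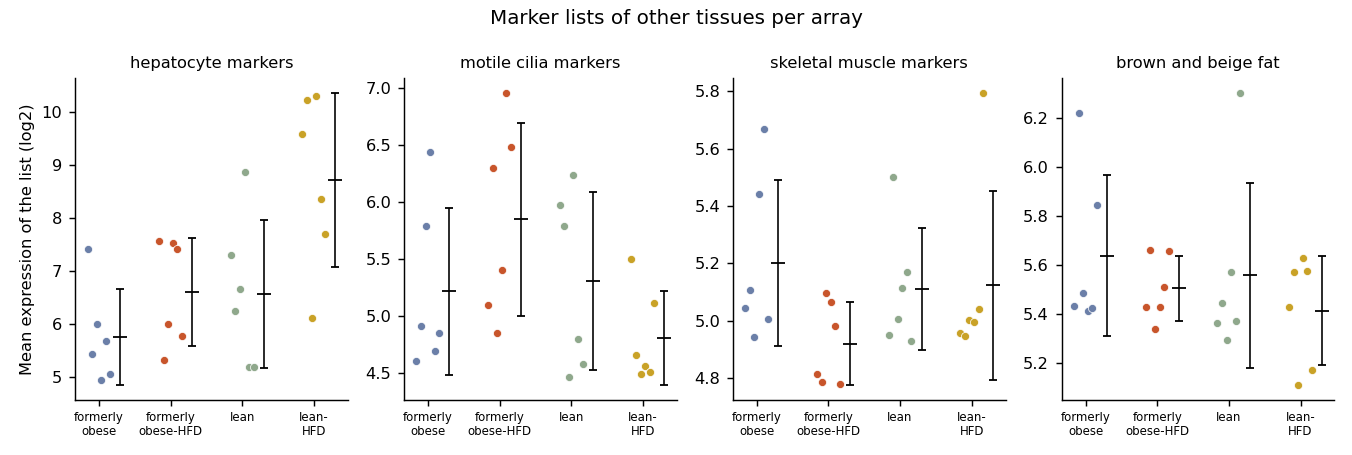
Mean expression (log2) of the hepatocyte, motile cilia, skeletal muscle and brown and beige fat lists in each array of 4 groups. Points are arrays, and the horizontal mark with its bar is the mean with the SD over 6 arrays. The refed formerly obese arrays spread from 5.33 to 7.57 for hepatocyte markers and from 4.85 to 6.96 for motile cilia markers, overlapping the formerly obese arrays in every list.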

How the data were processed

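RNA of gonadal white adipose tissue was measured with Mouse Gene 2.0 ST arrays from Affymetrix. The deposited values are log2 signals that the authors made by RMA in Affymetrix Expression Console 1.4.1.46, and they were used as given. Each array has its own column, and sequencing depth does not apply. The number of arrays limits the precision.

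Groups came from the sample labels. Each contrast was fitted with limma 3.58.1 (R 4.3.3) to the arrays of its own groups, over 41345 probe sets, with Benjamini-Hochberg adjustment over all of them. The difference between histories was an interaction term over 24 arrays. A call needed an adjusted p under 0.1, a fold over 1.3 and a level over 16 (linear) in 1 group. For the looser set the p limit was 0.01, unadjusted, and the other limits stayed. Of the probe sets 23521 had 1 gene symbol, 1820 several and 16004 none. A gene is the 1-symbol probe set of highest mean. Named genes, leaving out predicted genes, small RNAs, chemosensory receptors and antigen receptor segments, were up to 15 per direction of largest fold in the looser set, up to 3 of smallest p in each of 23 described lists, the 5 of smallest interaction p, and genes the study measured by qPCR or named. The members and lists were chosen with earlier results of these data known.

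On simulated data with 200 changed probe sets of 41345 for the comparison of formerly obese-HFD with formerly obese mice, the fit recovered 36 of 67 changed by 0.5 log2, 56 of 67 by 1 and 66 of 66 by 2, with 15 false calls, and made 0 calls with none changed. In the measured arrays Elovl6 (-1.55), Acly (-1.28) and Fasn (-1.12) were not called, so the simulated shares need not hold there. Alternatives were leaving out each array, a replicate block, array weights, median centring, other probe set filters, 1 fit of all 30 arrays and 2 marker scores as covariates. Tables and figures were made with Python 3.11.15, pandas 2.3.3, numpy 2.4.6 and matplotlib 3.10.9.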

Additional observations from a re-analysis of the deposited data

Results flagged for a closer look

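Of 218 groups of 6 arrays tested over the named genes, 12 held a highest or lowest array whose gap to the next exceeded Dixon's critical value, and chance gives about 1 in 20 such groups. Formerly obese replicate 5 was the lowest of its group for Ly6c1 (5.189), Pla2g2e (7.616), Dgat2 (10.369) and Lpl (12.306), and formerly obese replicate 3 was the highest for C7 (10.245). Among refed mice, formerly obese-HFD replicate 6 was the highest for Gys2 (5.559), replicate 3 the lowest for Fgf13 (4.443) and Col12a1 (4.489), and replicate 5 the lowest for Hk2 (7.214). Formerly obese-HFD replicate 1 was the highest for the lymphocyte genes Blk (5.257), Cr2 (5.322) and Tbx21 (4.865).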

How the results depend on the processing

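Of 109 named genes 98 kept their direction in formerly obese mice under all 21 settings, the 30 of largest fold among them, and 11 changed it under at least 1. The 30 were chosen for large differences in the same arrays, which such settings could hardly reverse. Their kept direction is therefore no separate evidence. The causes of the shifts below were not tested. Between formerly obese-HFD and formerly obese mice, 1 probe set was called and 133 were in the looser set when only probe sets with 1 symbol were tested. Leaving out 1 array gave 0 to 2 calls, the 2 without formerly obese-HFD replicate 6, and 228 to 305 in the looser set. In lean mice 1 was called, against 5 with all 30 arrays in 1 fit, 3 with dim probe sets removed, 0 with 1 symbol only, 3 with array weights, and 0 to 4 without 1 array. The interaction called 0, and 0 to 1 without 1 array (1 without formerly obese-HFD replicate 1 or 6). With hepatocyte or cilia scores as covariates, chosen after seeing the data, the lean count was 5 and 0.

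Same-numbered samples did not pair: 1 of 6 correlations of deviations was over 0.1 in formerly obese mice (-0.17 to 0.13) and 1 of 6 in lean mice (-0.26 to 0.18), and 0 samples matched their own number best. The replicate block gave 0 calls in formerly obese mice, with 281 in the looser set, 0 in lean mice and 1 in the interaction.

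Reversed differences lay between -0.0757 and 0.17 where no array was left out. With array weights they were 0.0588 for Adgre1, 0.0109 for Itgam and 0.0272 for Mrc1. With arrays centred on their medians it was -0.00217 for Clec10a. With the cilia score they were 0.17 for Adgre1, 0.116 for Itgam, 0.0347 for Itgax, 0.127 for Cd68, 0.0645 for Mrc1, 0.00375 for Srebf1 and -0.0158 for Srebf2. With the hepatocyte score they were -0.0757 for Clec10a, -0.0272 for Vcam1, -0.0526 for Prdm16 and 0.00676 for Srebf1. Without 1 array the range was -0.219 to 0.194 for Adgre1, -0.265 to 0.179 for Cd68, -0.131 to 0.0906 for Clec10a, -0.195 to 0.104 for Itgam, -0.692 to 0.0398 for Itgax, -0.100 to 0.0624 for Mrc1, -0.0152 to 0.0628 for Prdm16, -0.0715 to 0.0581 for Srebf1, -0.0428 to 0.237 for Tnf and -0.104 to 0.205 for Vcam1.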
